A study of Caenorhabditis elegans with 2 samples.

Results

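The small ribosomal subunit protein genes of Caenorhabditis elegans are described here by the DVE-1 peaks found at their promoters in late embryos. They were taken as the protein-coding genes named rps followed by a number in Ensembl release 115 (build WBcel235, the ce11 sequence). There were 31 of them among 19973 protein-coding nuclear genes. Chromosome IV carried 10, chromosome III carried 9 and chromosome I carried 8, with 3 on chromosome V and 1 on chromosome II. The rule uses gene names alone, and the set was chosen with earlier results of these data known.

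The ribosome's small subunit binds messenger RNA and reads its codons against transfer RNAs, while the large subunit joins the amino acids. The small subunit has a head, a body and a platform, and messenger RNA threads between the head and the body, past the decoding centre. The ribosomal proteins are made in near-equal amounts, and their genes are among the most actively transcribed in growing cells. DVE-1 is a homeodomain protein of the SATB family, best known in C. elegans as a regulator of the unfolded protein response of mitochondria.

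The samples were 2 biological replicates of 1 group, chromatin from whole hermaphrodite late embryos of strain OP398 (unc-119(tm4063) III; wgIs398). The transgene of these animals adds GFP and FLAG to the C-terminal end of DVE-1, and both replicates share the unc-119 mutation. Sonicated chromatin was immunoprecipitated through the GFP part of the tag. No untagged animals, other stage or untreated group was analysed here, so no peak could be set against such a background. Depth is unknown for both samples, since peak files carry no totals of reads. Whole embryos were used, and a peak present weakly in many cells and one present strongly in few cells cannot be told apart.

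A gene counted as bound when a peak summit lay in a window around its annotated 5′ end that reached 1000 bp upstream and 200 bp downstream. The authors' list thresholded by IDR, a measure of agreement between replicates, holds 1447 peaks. Their pooled list, called on both replicates together, holds 30000 peaks and includes background meant as input to IDR. Signal is the authors' own enrichment value for a peak, in arbitrary units, and ranks run from the strongest peak of the pooled list. The 1447 strongest pooled peaks were the thresholded list, so a rank up to 1447 and a thresholded peak are the same thing. The weakest thresholded peak had a signal of 78.9.

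Of the 31 small subunit genes, 18 (58.1%) had a thresholded summit in the window, against 4.33% of all protein-coding nuclear genes. A further 12 had a summit in the pooled list alone, which brought the total with any pooled summit to 30 of 31 (96.8%), against 41.5% of all genes. The remaining gene, rps-16, had none. In the replicates' own lists, 27 members had a replicate 1 summit in the window (22.5% of all genes did) and 30 had a replicate 2 summit (26.8% of all genes did). The large subunit genes, named rpl and a number, gave 25 of 47 with a thresholded summit (53.2%) and 44 with any pooled summit. When only thresholded peaks overlapped in both replicates were counted, the small subunit share was 51.6%, against 53.2% for the large subunit, so the order of these groups turns on that choice. The genes of mitochondrial ribosomal proteins, which serve a separate ribosome, gave 8 of 70 (11.4%). No set test was made, and the counts are set beside the background as a description.

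**Figure D1:**
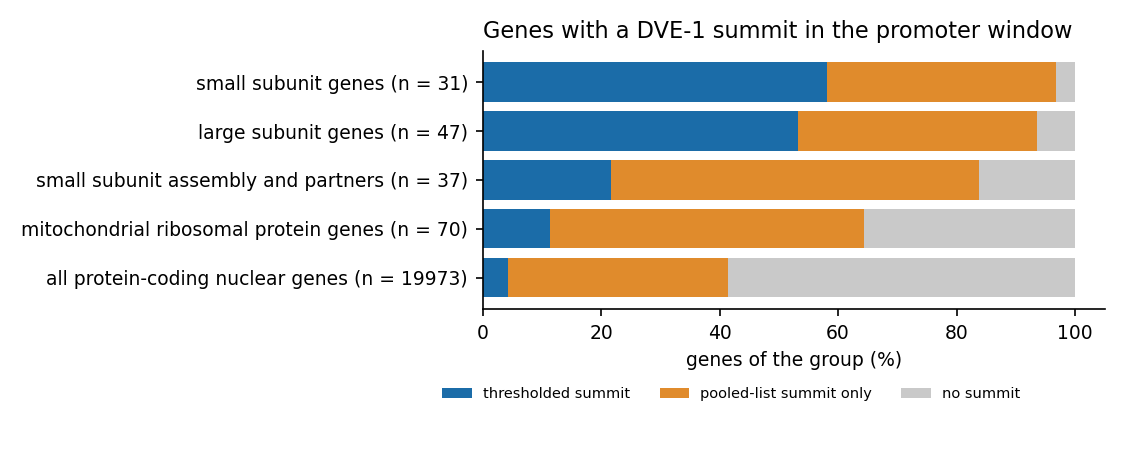
Share of each gene group, in percent, with a thresholded DVE-1 summit, with a summit in the pooled list alone, or with none in the window reaching 1000 bp upstream and 200 bp downstream of the 5′ end. Thresholded summits were at 58.1% of the 31 small subunit genes and 53.2% of the 47 large subunit genes, against 4.33% of all 19973 genes.

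Members from every part of the subunit were bound. By the positions of their counterparts in the yeast and human ribosome, 7 of 13 head proteins had a thresholded summit at their gene and 11 of 18 proteins of the body and platform did. Split by ancestry, 6 of the 15 members whose protein family is shared with bacteria had a thresholded summit, as did 12 of the 16 without a bacterial counterpart. Any pooled summit was present at 14 of the 15 and at all 16 of the others. Over all protein-coding nuclear genes, 4.33% had a thresholded summit and 41.5% had any pooled summit. The difference between these groups was not tested.

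The strongest member peaks lay at rps-12, rps-28, rps-19 and rps-1. The summit (base 51) and the 50 bases to each side of it are shown for the 6 strongest members whose windows can be printed, to let the bound promoters be compared. They were read from the RefSeq WBcel235 genome on the gene's strand and overlap no annotated UTR. Capitals mark the 12-base runs that several members share, which are described further on. The windows of rps-12, rps-28 and rps-1 hold none of them, rps-22 and rps-0 hold 1 each and rps-30 holds 2. The rps-12 window is chrIII:5679078-5679178 on the plus strand. That of rps-28 is chrIV:1659193-1659293 (plus strand). That of rps-1 is chrIII:4475606-4475706 (plus strand). That of rps-22 is chrIII:1950356-1950456 (plus strand). That of rps-30 is chrV:7776286-7776386 (plus strand). That of rps-0 is chrIII:4754306-4754406 (minus strand).
rps-12: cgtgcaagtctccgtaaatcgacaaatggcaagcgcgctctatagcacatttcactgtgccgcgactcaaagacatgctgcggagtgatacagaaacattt
rps-28: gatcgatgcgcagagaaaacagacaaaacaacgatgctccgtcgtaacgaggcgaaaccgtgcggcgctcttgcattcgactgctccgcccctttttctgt
rps-1: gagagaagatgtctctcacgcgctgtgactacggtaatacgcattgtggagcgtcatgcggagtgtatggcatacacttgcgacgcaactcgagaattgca
rps-22: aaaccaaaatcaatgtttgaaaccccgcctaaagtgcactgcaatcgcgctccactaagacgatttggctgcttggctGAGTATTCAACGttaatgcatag
rps-30: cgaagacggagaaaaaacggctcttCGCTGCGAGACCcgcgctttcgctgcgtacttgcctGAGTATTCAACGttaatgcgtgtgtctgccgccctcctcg
rps-0: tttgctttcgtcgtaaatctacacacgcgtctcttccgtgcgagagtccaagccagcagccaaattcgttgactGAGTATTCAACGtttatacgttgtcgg

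Among the head proteins, the gene of rps-12, a protein of the beak of the head, had the strongest peak of all members. Its pooled signal was 253 (rank 67), with 130 in replicate 1 and 123 in replicate 2, and the summit lay 170 bp upstream. Next came rps-28, whose protein sits near the exit of the messenger RNA channel. Its peak reached 217 (rank 107), with 79.7 in replicate 1 and 138 in replicate 2, at 448 bp upstream. These 2 were in the strongest 162 peaks of each replicate list, rps-12 at ranks 40 and 141 and rps-28 at ranks 162 and 93 in replicates 1 and 2.

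After them came rps-19, whose human counterpart is the gene most often mutated in Diamond-Blackfan anaemia. Its pooled signal of 195 (rank 159) came with 102 in replicate 2 (rank 253) and with no overlapping peak in replicate 1, where the nearest summits were 28313 bp upstream and 5780 bp downstream of the 5′ end. Why the replicate 1 list holds no peak there was not tested, and no source used here says whether reads or peaks were filtered out. The summit lay 274 bp upstream, in the peak chrI:9625888-9626251. For rps-20, whose human counterpart is ubiquitinated on stalled ribosomes, the pooled signal was 136 (rank 427), with 78.5 in replicate 1 and 61.8 in replicate 2, 231 bp upstream (chrI:14469152-14469515).

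The other head genes with a thresholded summit were rps-17, rps-10 and rps-15. At rps-17, another gene of Diamond-Blackfan anaemia in humans, the signal was 122 (rank 561), with 47.2 in replicate 1 and 65.4 in replicate 2, at 219 bp. At rps-10, whose human counterpart is also marked with ubiquitin on stalled ribosomes, it was 114 (rank 662), with 53.6 and 58.4 in replicates 1 and 2, at 387 bp. At rps-15, a universal protein of the head, it was 111 (rank 704), with 52.7 and 55.6 in replicates 1 and 2, at 382 bp. All 3 ranked just above the middle of the thresholded list.

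The body and platform had more members with a thresholded summit, none of them as strong as the 3 leading head genes. For rps-1, a platform protein near the messenger RNA exit, the signal was 151 (rank 315), with 73.2 in replicate 1 and 73.3 in replicate 2, 262 bp upstream. For rps-26, which touches messenger RNA upstream of the codon being read, it was 144 (rank 362), with 50.9 and 92.7 in replicates 1 and 2, at 317 bp (chrI:14759431-14759794). For rps-22, a universal body protein, it was 139 (rank 408), with 46.9 and 92.0 in replicates 1 and 2, at 129 bp, the closest to a 5′ end among the thresholded members.

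Close behind in signal, rps-30 encodes a protein at the messenger RNA entry, made in humans as a fusion with a ubiquitin-like protein. Its peak had a signal of 130 (rank 469), with 41.8 in replicate 1 and 89.9 in replicate 2, at 242 bp. At rps-0, whose human counterpart is also known as the laminin receptor, the signal was 129 (rank 479), with 62.1 and 69.5 in replicates 1 and 2, at 305 bp. At rps-23, a protein of the decoding centre, it was 123 (rank 554), with 57.9 and 59.6 in replicates 1 and 2, at 272 bp (chrIV:12391143-12391506). Signals of the replicate lists come from separate calls and were set against each other only by rank. In share of its own list, rps-26 was in the strongest 5.20% of replicate 1 and 2.02% of replicate 2, and rps-1 in the strongest 1.82% and 3.78%.

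At rps-24, a further gene of Diamond-Blackfan anaemia in humans, the pooled signal was 122 (rank 564), with 51.0 in replicate 1 and 67.9 in replicate 2, at 317 bp. The weakest thresholded peaks belonged to rps-4 and rps-8, both of the body, to rps-27, a zinc-finger protein of the platform, and to rps-13, a protein that bridges to the large subunit. For rps-4 the values were 92.6 (rank 1067), with 44.5 and 46.5 in replicates 1 and 2, at 264 bp. For rps-27 they were 86.8 (rank 1215), with 35.5 and 45.8 in replicates 1 and 2, at 576 bp, the farthest upstream of the thresholded members.

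The peak of rps-13 had a pooled signal of 85.3 (rank 1245) and 67.3 in replicate 2, 210 bp upstream of the start codon, and no replicate 1 peak overlapped it. That of rps-8 had 82.4 (rank 1332), with 38.6 and 37.0 in replicates 1 and 2, at 264 bp, and was the weakest inside the threshold. Just outside it were rps-11 with 75.5 (rank 1576) and rps-6 with 73.2 (rank 1673). No gap in signal separates the bound members from those in the pooled list alone, and the count of 18 depends on where the authors' threshold falls.

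**Figure D2:**
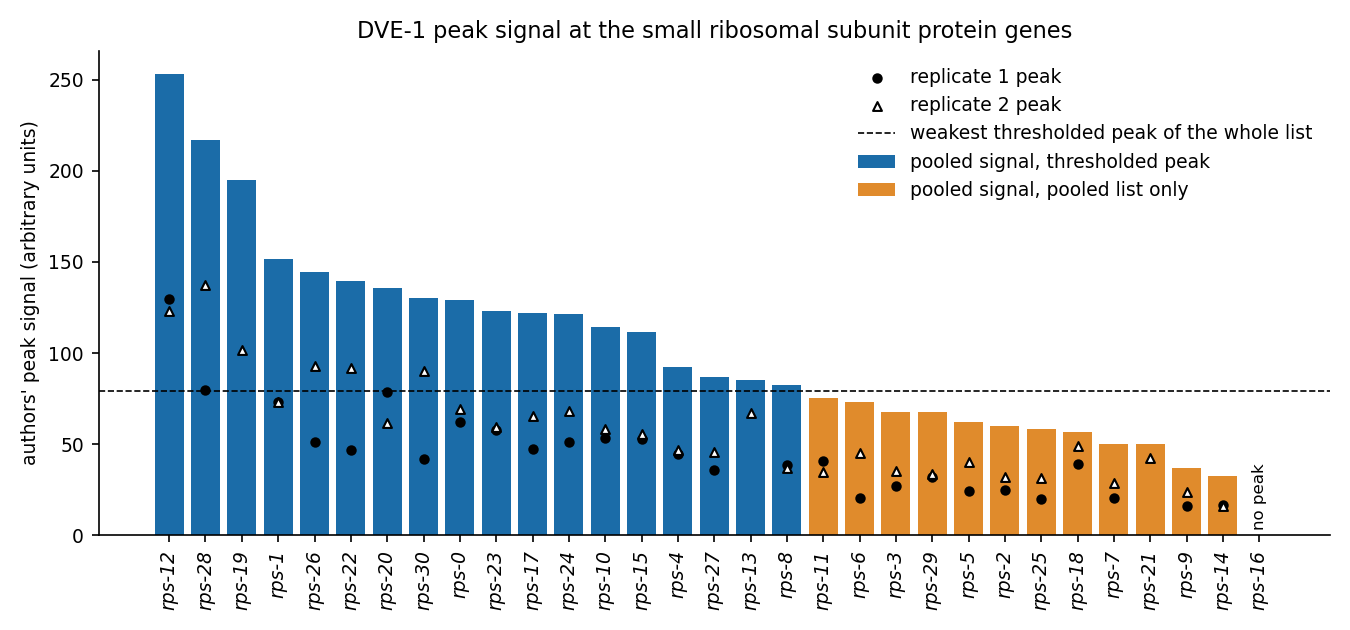
Authors' peak signal (arbitrary units) at each small subunit gene, strongest first: bars give the pooled list, filled circles the replicate 1 peak and open triangles the replicate 2 peak, and the dashed line marks the weakest thresholded peak (78.9). Signals run from rps-12 at 253 to rps-14 at 32.3, without a gap at the line, where rps-8 at 82.4 is just above and rps-11 at 75.5 just below. No circle stands at rps-19, rps-13 or rps-21.

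The 18 thresholded member peaks had a median signal of 126, with a lowest of 82.4 and a highest of 253. The 25 large subunit targets had a median of 124, and the 865 target genes of the whole list a median of 108. Of the 18 members, 14 were above the median signal of the thresholded list (110), as were 16 of the 25 large subunit genes and 416 of the 865 targets. Among the strongest 25% of the thresholded list were 4 of the 18 members, rps-12, rps-28, rps-19 and rps-1. So were 8 of the 25 large subunit genes and 172 of all 865 targets. Most small subunit peaks were thus above the median of the list, and the strongest peaks of the series lay elsewhere, at signals up to 917.

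The 12 members with a pooled summit alone were named rps-2, rps-3, rps-5, rps-6, rps-7, rps-9, rps-11, rps-14, rps-18, rps-21, rps-25 and rps-29. Between 32.3 and 75.5 in signal, they had a median of 59.0, and their ranks were 1576 to 9597. For rps-11, a body protein shared with bacteria, the replicates gave 40.9 (rank 1007 in replicate 1) and 34.7 (rank 2672 in replicate 2). For rps-6, the classic target of the growth kinase downstream of TOR, they gave 20.4 and 45.2 in replicates 1 and 2. For rps-18, a head protein that touches the large subunit, they gave 39.3 and 49.0, and the 2 replicate summits lay 9 and 204 bp from the pooled summit. In both replicates rps-18 was among the strongest 1447 peaks (ranks 1108 and 1376), while its pooled signal of 56.6 ranked 2817.

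Next, rps-3, of the messenger RNA entry, had a pooled signal of 67.8 with 26.8 and 35.1 in replicates 1 and 2. The zinc-finger head protein gene rps-29 had 67.4, with 31.9 and 33.4 in replicates 1 and 2. At rps-5, of the head near the tRNA exit, the signal was 62.1, with 24.2 and 40.0 in replicates 1 and 2. These 3 had their summits 381, 539 and 384 bp upstream, farther out than the median of the thresholded members.

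At rps-2, a universal protein that helps to keep decoding accurate, the pooled signal was 60.0, with 25.1 in replicate 1 and 31.7 in replicate 2. At rps-25, a head protein that some viral RNAs need for translation in yeast and human cells, it was 58.1, with 19.7 and 31.5 in replicates 1 and 2. At rps-7 it was 50.2, with 20.6 and 28.4 in replicates 1 and 2. All 3 were outside the strongest 1447 peaks of either replicate.

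The gene rps-21 had 49.96 in the pooled list and 42.5 in replicate 2, and no overlapping peak in replicate 1. The weakest were rps-9, whose universal protein is an early binder of the small subunit RNA, and rps-14, of the platform. At rps-9 the signal was 36.7 (rank 7068), with 15.95 and 23.8 in replicates 1 and 2. For rps-14 the signal was 32.3 (rank 9597), with 16.4 and 15.8 in replicates 1 and 2. Both were above the median of all 30000 pooled peaks (26.7), rps-9 in the strongest 23.6% of that list and rps-14 in the strongest 32.0%.

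No list placed a summit in the window of rps-16, whose protein reaches with its tail to the transfer RNA at the peptidyl site. The gene (chrV:15000018-15000541, minus strand) begins 109 bp downstream of the end of fib-1, on the same strand. The nearest thresholded summit upstream lay 1751 bp from its 5′ end and 69 bp upstream of fib-1, which encodes fibrillarin, the methyltransferase of ribosomal RNA. That peak had a pooled signal of 128 (rank 484), with 51.0 in replicate 1 and 78.9 in replicate 2. With a wider window, reaching 2000 bp upstream and 500 bp downstream, this summit was counted for rps-16 and the thresholded count became 19, against 6.19% of all genes.

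The bound sites took up a narrow band. The 18 thresholded summits lay 129 to 576 bp upstream of the annotated 5′ end, with a median of 268 bp and quartiles of 234 and 317 bp. The large subunit targets had a median of 315 bp. All 865 targets had a median of 264 bp, nearly the same as the members, but quartiles of 146 and 466 bp. From 100 to 400 bp upstream lay 16 of the 18 members (88.9%), 20 of the 25 large subunit targets (80.0%) and 466 of the 865 targets (53.9%). The weaker peaks did the same, at 10 of the 12 members in the pooled list alone. Of all 30 members with a pooled summit, 26 (86.7%) had it in that band, against 38.3% of all 8286 genes with a pooled summit. Every member summit was upstream of the 5′ end, as were the summits of all 25 large subunit targets and of 833 of the 865 targets. From the start codon the thresholded member summits lay 202 to 617 bp away, with a median of 288 bp.

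**Figure D3:**
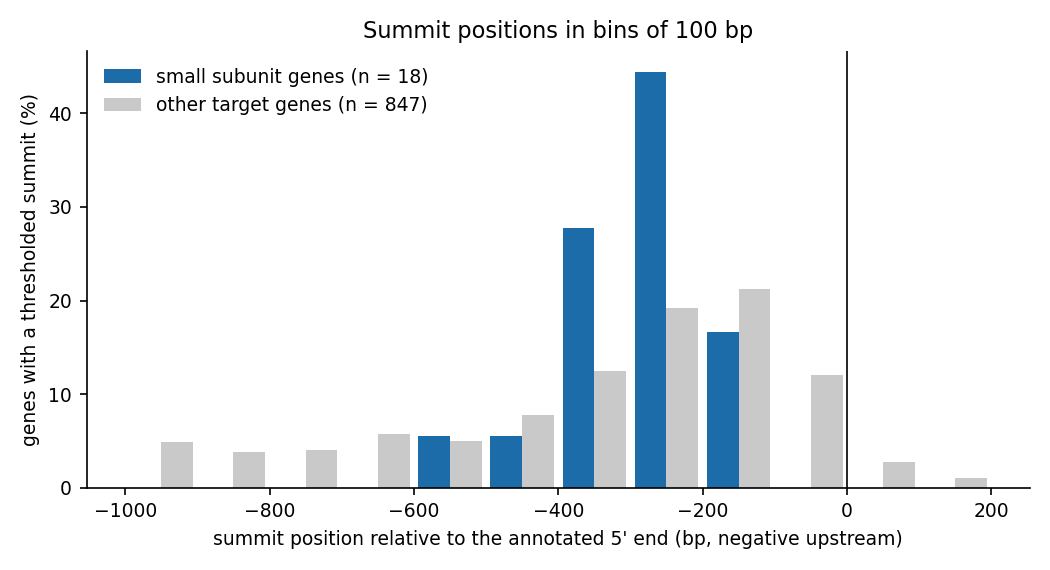
Share of genes (percent) whose strongest thresholded summit falls in each bin of 100 bp from the annotated 5′ end, for the 18 small subunit targets and the other 847 targets. Of the small subunit summits, 16 lie from 100 to 400 bp upstream, and the other targets spread over the whole window.

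Much of the binding was in windows shared with a neighbour. Of the 18 thresholded member summits, 14 (77.8%) also lay in the window of another protein-coding gene, against 216 of the 639 thresholded promoter summits of the series (33.8%). In the 18 thresholded members, 13 had a neighbour on the other strand whose gene began within 1000 bp, as did 6 of the 13 other members, 42.3% of all targets and 17.5% of all genes. The neighbour's 5′ end was the closer one at 9 of the 18, so the nearest-gene rule would keep only 9 members, or 29.0%, against 4.68% of all genes. A summit between a pair of genes cannot be given to one of them from these files.

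Among the strongest members, the rps-12 summit was 123 bp upstream of ska-3, a gene of the spindle and kinetochore complex of that name. That of rps-19 was 171 bp upstream of hsr-9, a gene of the DNA damage response. The rps-1 summit was 506 bp upstream of ifet-1, a translational repressor that binds the cap-binding protein, and here the ribosomal gene was the nearer. The rps-26 summit was 140 bp upstream of tmem-107, a gene of the ciliary transition zone. In the case of rps-22 it was 129 bp upstream of the ribosomal gene and 137 bp upstream of polh-1, which encodes a DNA polymerase that copies damaged DNA. All 5 of these neighbours lie on the other strand from the ribosomal gene.

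The rps-20 summit lay 166 bp upstream of ekl-4, that of rps-0 68 bp upstream of rbg-3, and that of rps-23 262 bp upstream of dpm-3, a subunit of the dolichol-phosphate mannose synthase. For rps-15 the neighbour was F36A2.9, with its 5′ end 399 bp away. For rps-27 it was picd-1 at 172 bp, and for rps-13 it was nfx-1 at 188 bp. The summit of rps-28 was also in the window of Y41D4B.4, whose 5′ end lies on the same strand and 867 bp away, beyond rps-28 itself. Only rps-17, rps-24, rps-4 and rps-8 had a thresholded summit that no other gene's window held.

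In 3 cases both neighbours encode cytosolic ribosomal proteins. The rps-30 summit was 242 bp upstream of rps-30 and 257 bp upstream of rpl-39 on the other strand, close to midway, and it also fell 964 bp upstream of C26F1.3. The rps-10 summit was 387 bp upstream of rps-10 and 223 bp upstream of rpl-24.1. The weak rps-14 summit was 296 bp upstream of rps-14 and 367 bp upstream of rpl-36. Their pooled signals were 130, 114 and 32.3, so a promoter between ribosomal genes on both sides held one of the members' middling peaks and also the weakest.

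Of the 12 members with a pooled summit alone, 6 shared it (the same share over all such genes was not counted). They were rps-3 with sna-3 (211 bp upstream of it), rps-6 with usp-3 (241 bp), rps-9 with lsm-1 (282 bp) and F40F8.1 (996 bp), rps-14 with rpl-36 and ndab-2 (868 bp), rps-29 with snt-2 (28 bp), and rps-18 with sec-61.A. The last is the core of the protein-conducting channel of the endoplasmic reticulum, and the summit lay 76 bp downstream of its 5′ end. In 4 of these, rps-3, rps-6, rps-9 and rps-29, the neighbour upstream was the nearer gene, and at rps-18 sec-61.A was.

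Both replicate lists had a peak that overlapped by at least 1 bp at 16 of the 18 thresholded member summits (88.9%), against 632 of the 639 promoter summits (98.9%). The 2 without, rps-19 and rps-13, both lacked a replicate 1 peak, and they were 2 of the 6 thresholded promoter summits in the series with none. Within the strongest 1447 peaks of both replicates were 13 of the 18 (72.2%), against 65.3% of the promoter summits. Where replicate peaks were present, their summits lay a median of 8 bp (replicate 1, n = 16) and 10 bp (replicate 2, n = 18) from the pooled summit, and at most 49 and 76 bp. Relative to the length of its list, the member ranked higher in replicate 1 in 9 of the 16 with both and higher in replicate 2 in 7. Among the pooled-only members with both, 8 of 11 ranked higher in replicate 2.

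**Figure D4:**
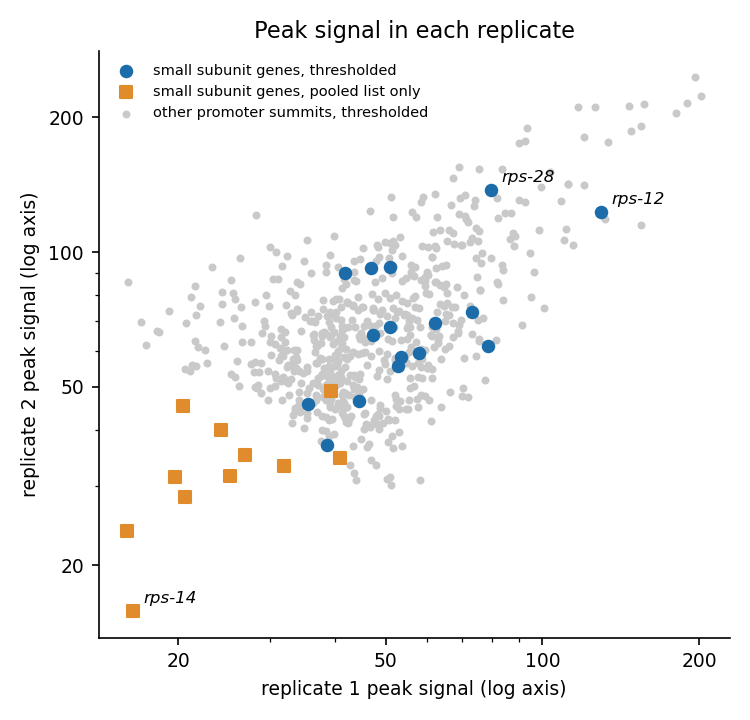
Peak signal in replicate 1 against replicate 2 on log axes, for small subunit genes with a thresholded summit, those in the pooled list alone, and the other thresholded promoter summits of the series. The thresholded members lie inside the cloud of other summits, rps-12 at 130 and 123 and rps-28 at 79.7 and 138, and rps-14 is near the lower end of both axes.

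No thresholded member summit lay within 200 bp of a tRNA or snoRNA gene, against 8.14% of the 639 promoter summits. Small nucleolar RNA genes sit inside 5 of the 31 members, 4 of them with a thresholded summit, and the summits of those 4 were upstream of the host gene. The 100 bases to each side of the member summits had a median of 42.8% G and C, against 44.8% for all promoter summits.

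The sequence around the summits was then searched on both strands for 10 short motifs, from a list written with earlier results of these data known. A match is a description of letters and not of a site. The homeodomain core TAATTA was within 100 bases of the summit in 1 of 18 member windows (5.56%), against 3.44% of the 639 promoter summits. The letters ATCAAT were in 5 of 18 (27.8%), against 13.0%. Within 200 bases of the summit they were in 13 of 18 (72.2%), against 36.0% of large subunit windows and 32.2% of promoter summits. In the 500 bp upstream they were in 15 of the 18 thresholded members and 5 of the 13 others. That share was 44.7% for large subunit promoters and 45.0% for all promoters. The E-box CACGTG and the letters TGACGT, the core of a cAMP response element, were in 0 of 18 each, against 5.16% and 7.82%, and TATAAA was in 1 of 18 (5.56%), against 9.55%.

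The repeat GAGAGA was in 3 of 18 member windows (16.7%), against 35.8% of promoter summits. GCGCGC was in 2 of 18 (11.1%), against 12.8%, and TTTCAG, the usual letters before a trans-splice acceptor, was in 6 of 18 (33.3%), against 16.4%. CTGCGTCTC was in none of the 18, against 13.1% of promoter summits and 2 of the 25 large subunit summits. With 18 windows, 1 window more or less moves a share by 5.56 percentage points, and shares of 0 to 3 windows carry little.

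The 6 letters TTAGGC, which repeat in tandem at worm telomeres, occurred in the member promoters as separate copies. They were in 6 of 18 member windows (33.3%), against 48.0% of large subunit windows and 11.4% of all promoter summit windows. In the 500 bp upstream of the 5′ end they were in 11 of 31 member promoters (35.5%), against 44.7% of large subunit promoters and 11.0% of all promoters. Several of the 13 member copies were in the rps-6 promoter, and none of the 13 stood in tandem. They were at 5 of the 18 thresholded members and at 6 of the 13 others. The copies lay 77 to 369 bp upstream of the 5′ end. The middle of a copy was a median of 76 bp from the summit.

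The 8 letters TTTAGGCC, a longer form read from the member promoters after they were seen, made up 8 of the 13 copies, in 7 genes (rps-4, rps-5, rps-6, rps-8, rps-9, rps-26 and rps-28). They were in 22.6% of member promoters, 31.9% of large subunit promoters and 1.65% of all promoters of 500 bp. At rps-26 the copy covered the summit base. Of the sites below, the first 5 carry the 8 letters in capitals and rps-22 carries the 6 alone, each written so that the capitals read forward. They were read from the RefSeq WBcel235 genome at chrIV:7084889-7084914 (minus strand, rps-4), chrIV:7314067-7314092 (minus strand, rps-8), chrIV:1659307-1659332 (minus strand, rps-28), chrIV:11111281-11111306 (plus strand, rps-5), chrII:11126549-11126574 (minus strand, rps-9), chrIII:1950372-1950397 (minus strand, rps-22).
rps-4: gaaattgatTTTAGGCCagacgcaag
rps-8: ctgtgaattTTTAGGCCcgattttct
rps-28: agaaaatatTTTAGGCCaacgcaatc
rps-5: tatacaaatTTTAGGCCaaattcgta
rps-9: ccccactctTTTAGGCCgaacctgac
rps-22: gcagtgcactTTAGGCggggtttcaa

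Longer stretches recurred as well. The 30 member windows of 100 bases to each side of the pooled summit were searched for exact runs of 12 bases present in at least 4 of them on either strand. The search was made after the windows were seen, and no test belongs to it. It gave 3 distinct runs, in 13 members together, 9 of them with a thresholded summit. Distances from a run to the summit are taken from the middle of the run.

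The first run was in the windows of rps-4, rps-7, rps-11, rps-25 and rps-30, of which 2 had a thresholded summit. It occurs 249 times in the nuclear genome, and 15 of those copies lie in thresholded peaks and 59 in pooled peaks. It was in 14 of the 639 promoter summit windows (2.19%), 11 of which lie near no cytosolic ribosomal gene, and in 4 of 44 large subunit windows, 1 of them the summit that rpl-39 shares with rps-30. The 14 windows and the 15 copies in thresholded peaks include rps-4 and rps-30, in which the run was found. Part of both counts thus follows from the search itself. In 3 of the 5 members the run lay on the gene's side of the summit. The copies below, with the run in capitals and turned to read alike, are at chrIV:7084905-7084934 (plus strand, rps-4), chrIV:11602305-11602334 (minus strand, rps-11), chrIV:5947927-5947956 (plus strand, rps-25), chrV:7776302-7776331 (plus strand, rps-30).
rps-4: aatcaatttCGCTGCGAGACCtggcagctg
rps-11: tgaagtgtgCGCTGCGAGACCcaagcgctg
rps-25: gttgtgcggCGCTGCGAGACCcagttgtgt
rps-30: acggctcttCGCTGCGAGACCcgcgctttc

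The second run was in the windows of rps-0, rps-3, rps-20, rps-22 and rps-30, and all but rps-3 had a thresholded summit. In these 5 the identity extends to 14 bases. The 12-base run was also in 4 of 44 large subunit windows, those of rpl-7A, rpl-13, rpl-32 and rpl-39, and rpl-39 shares its summit with rps-30. The run has 27 copies in the nuclear genome, 7 of them in thresholded and 14 in pooled peaks. Of the 639 promoter summit windows, 7 held it (1.10%), and 6 of those 7 had a cytosolic ribosomal gene in their window. These 6 include the 4 thresholded members in which the run was found, so most of that count follows from the search itself. In each of the 5 members it lay on the gene's side of the summit, 17 to 66 bp from it, and on the strand opposite to the gene. The printed copies are at chrIII:4754312-4754341 (plus strand, rps-0), chrIII:6206473-6206502 (minus strand, rps-3), chrIII:1950425-1950454 (minus strand, rps-22), chrV:7776338-7776367 (minus strand, rps-30).
rps-0: acgtataaaCGTTGAATACTCagtcaacga
rps-3: tcgttgaagCGTTGAATACTCagtcaacgg
rps-22: atgcattaaCGTTGAATACTCagccaagca
rps-30: acgcattaaCGTTGAATACTCaggcaagta

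The third run was in rps-10, rps-13, rps-17 and rps-23, which all had a thresholded summit. It has 32 copies in the nuclear genome, with 11 in thresholded peaks (34.4%) and 20 in pooled peaks. It was in 11 of the 639 windows (1.72%), 7 of them at a cytosolic ribosomal gene, and in the large subunit windows of rpl-1, rpl-11.2, rpl-21 and rpl-24.1. The last of these shares its summit with rps-10. The 7 windows and the 11 copies in thresholded peaks include the 4 members in which the run was found, so part of both counts follows from the search itself. At rps-10, rps-13 and rps-23 it also lay on the gene's side, and at rps-17 it spanned the summit. In the 4 members the middle of the run was 2 to 25 bp from the summit. It was on the gene's strand in 2 and on the other strand in 2. Copies that can be shown are at chrIII:6375152-6375181 (minus strand, rps-13), chrIV:12391292-12391321 (plus strand, rps-23).
rps-13: cgcaaaacgAGTGTTACCGTAtacaacttt
rps-23: gctgaaacgAGTGTTACCGTAcctcgaggt

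**Figure D5:**
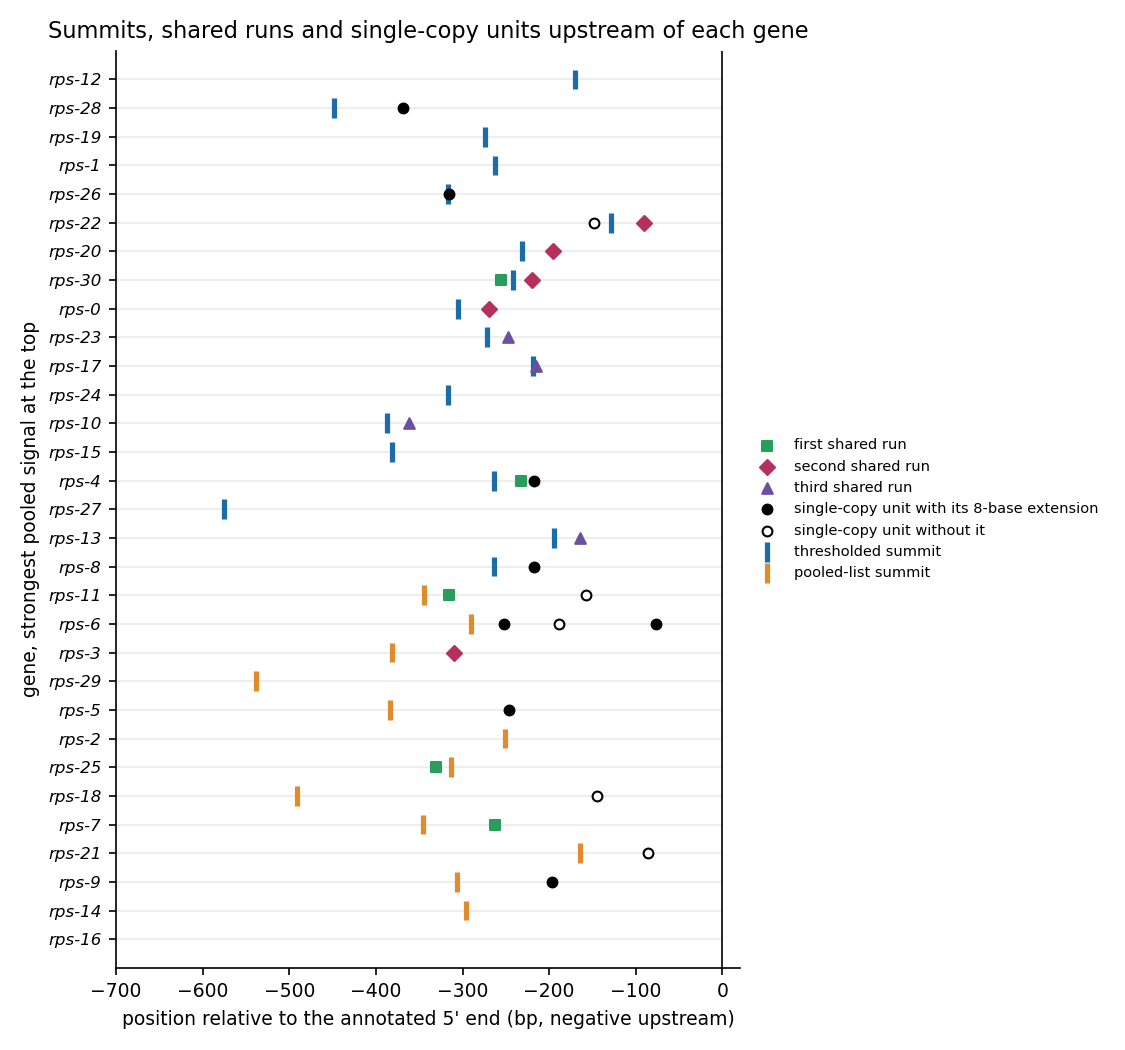
Positions (bp from the annotated 5′ end, negative upstream) of the pooled summit, the 3 shared runs and the TTAGGC copies at each small subunit gene, strongest peak at the top. Each run is drawn at its edge nearest the gene. The second run lies to the right of the summit, toward the gene, at all 5 places, and the first run does so at 3 of 5. The third run does so at rps-10, rps-13 and rps-23 and spans the summit at rps-17. TTAGGC copies are spread from strong to weak members.

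Genes of ribosome assembly and partner genes of the small subunit were counted in the same way. The list was not limited to assembly factors of the small subunit. Of 45 such genes written from background knowledge, 37 matched an annotated name. A thresholded summit was at 18 of the 31 protein genes (58.1%) and at 8 of these 37 (21.6%), against 4.33% of all genes. Any pooled summit was at 31 of the 37, against 41.5% of all genes. The 8 had a median signal of 110 and a median distance of 216 bp upstream. The difference between the lists was not tested.

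The strongest of the 8 was larp-1, the counterpart of a human regulator of ribosomal protein messenger RNAs, with a signal of 265 (rank 53) at 662 bp upstream, above any protein gene of the subunit. Then came fib-1 with 128 at 69 bp, rbd-1, an RNA-binding protein of small subunit assembly, with 122 at 126 bp, and nol-10 with 114 at 220 bp. The others were lpd-7 with 107 at 250 bp, ubl-1 with 92.8 at 212 bp, pro-1 with 87.8 at 127 bp, and nol-58, a core protein of the box C/D particles, with 85.6 at 299 bp. The gene ubl-1 encodes ubiquitin fused to the remaining protein of the subunit's head, which the rps names leave out. The box C/D partner nol-56 (63.0) and rack-1, the scaffold protein bound to the head (61.4), had a pooled summit alone. The pooled list placed no summit in the window of rsks-1, the kinase of the rps-6 protein.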

How the data were processed

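The members and gene lists were chosen with earlier results of these data known. Per the labels, the samples are 2 biological replicates of 1 group. Text files deposited beside the lists say that the authors made, in ce11, a list of peaks for each replicate, a pooled one and an IDR-thresholded one, with 1 control alignment for both replicates. Not given in the sources used here are the aligner, the caller and the settings of IDR. Each deposited peak carries the authors' signal, of a normalization they do not state, and it was compared only within a list; replicate values are given side by side and set against each other by rank. Summits are the start plus the offset that the deposited lists give in another column, and a further score column was not used. Lists in ce10 were not used.

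Peaks were joined to Ensembl release 115 genes and the RefSeq WBcel235 sequence with Python 3.11.15, numpy 2.4.6 and pandas 2.3.3. For each gene the strongest summit in the window was taken, and for each replicate the strongest peak that overlapped the pooled peak by at least 1 bp. The assignment was tested on simulated data with planted summits. Every member is named, with values for each list and replicate for the 10 strongest, for those with a shared summit, and for the rest of the bound members. Alternatives changed the window, the 5′ end, the list, the overlap and the motif windows. Both replicates come from 1 strain, no p-values were computed, and peak lists give no depth or counting interval.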

Additional observations from a re-analysis of the deposited data

How the results depend on the processing

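The replicate-1 and replicate-2 lists, the authors' threshold and the window set what can be said, and without read totals no depth or interval can be given. Of 50 alternative values, 43 stayed within 1.5 times the main count or within 1 SD of the main median over the replicates, 6 moved beyond that and 1 reversed. The SD was taken from each replicate's own value alone, and for signal the replicates have separate scales. For signal it therefore gives no measure of the spread between replicates. The thresholded count of 18 became 9 when only the nearest 5′ end within 2000 bp was used (4.68% of all genes), and the excess of the small over the large subunit, 4.87 percentage points, was then 1.37. With either replicate's 1447 strongest peaks alone the count ran from 16 to 18 (4.16% and 4.32% of all genes), and 15 and 16 of the same members remained: without replicate 1, rps-4, rps-8 and rps-27 dropped out and rps-18 came in, and without replicate 2, rps-13 and rps-19 dropped out and rps-11 and rps-18 came in. The median signal of the members then ran from 50.9 to 68.7 on the replicates' own scales. The median distance ran from 268.5 to 280.5 bp, and it was 288 bp from the start codon. From 500 bp upstream to 100 bp downstream the count was 17, without rps-27 (3.29% of all genes). Peaks above the list's median signal left 14 (2.08%), and requiring peaks in both replicates, chosen after the data were seen, left 16 of 31 small subunit genes (51.6%) against 53.2% of large subunit genes and 4.28% of all genes, a difference of -1.58 percentage points that reverses the order of the groups. TTAGGC was in 5 member windows of 50 bp to each side of the summit and in 6 of 200 bp to each side. No paired analysis was possible because the series has 1 group.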

Other observations

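The 8 letters TTTAGGCC were also looked at beyond the ribosomal genes, as a check chosen after the data were seen. Of all 330 genes with them in the 500 bp upstream, 54 (16.4%) had a thresholded DVE-1 summit. Leaving out the genes of both cytosolic ribosomal subunits, 38 of the remaining 308 (12.3%) had one, against 4.13% of all 19895 genes that are not cytosolic ribosomal genes. Some of the 308 are neighbours that share a promoter with a ribosomal gene, such as tmem-107 with rps-26. Without every gene whose 5′ end lies within 2000 bp of that of a cytosolic ribosomal gene, the count was 28 of 291 (9.62%), against 3.98% of the 19791 genes left. For the shorter TTAGGC these shares were 6.03% of 2205 genes and 5.34% of 2173 genes, and 4.85% of 2146 genes without those neighbours. No test was made of these shares.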
